A study of Arabidopsis thaliana with 15 samples.

Results

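The 2 click chemistries of NAD-seq, a capture of RNA that carries NAD+ at its 5′ end, were compared on the same mock-treated poly(A) RNA of Arabidopsis thaliana seedlings. The comparison takes the 6 libraries labelled as mock NAD-seq, 3 made by strain-promoted azide-alkyne cycloaddition (SPAAC) and 3 by copper-catalysed azide-alkyne cycloaddition (CuAAC), out of 15 libraries in the series. All genes entered it: 21456 of the 37361 deposited genes passed the filter on low counts and were tested. The question was which genes, and which kinds of gene, differed between the chemistries beyond what their length gave.

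Most mRNAs made in the nucleus begin with an m7G cap, and a minority begin with NAD+ instead. In NAD-seq an enzyme exchanges part of the NAD+ for a clickable group, the click reaction adds biotin, and streptavidin beads retain the tagged RNA. CuAAC needs copper ions as catalyst, whereas SPAAC uses a strained alkyne and no metal. Because the tag sits at the 5′ end and the library is made from fragments of the captured molecule, an intact captured RNA gives reads along its whole length.

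All groups used here were Col-0 seedlings aged 12 days, grown with 16 h of light and 8 h of dark. The mock RNA went through the depletion procedure without the anti-m7G antibody and was then split into aliquots for SPAAC, CuAAC and mRNA-seq. The m7G-depleted SPAAC and CuAAC libraries, also 3 each, had the antibody and were used here only as a second look at the same chemistries. Both reactions held carrier tRNA of E. coli, and RNA was fragmented by heat and primed at random after elution, per the labels' protocols. Whether replicates were separate plants or cultures is not in the labels, and p-values then reflect the spread of these samples alone, possibly technical. A library without the tagging enzyme was not analysed here, so RNA retained without a tag cannot be told apart from tagged RNA. Whole seedlings mix organs, and fewer cells of a type cannot be told apart from less RNA per cell.

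The mock SPAAC libraries held 16707841 to 19798778 counts and the mock CuAAC libraries 10720005 to 15932443. The m7G-depleted SPAAC libraries held 13659501 to 15232302 counts, the m7G-depleted CuAAC libraries 6242770 to 7056230, and the mRNA-seq libraries 3806556 to 9097552. In the 6 mock NAD-seq libraries the shoot genes RBCS1A, CAB1 and RCA ran from 6470 to 23200 CPM and the seed and flower markers were at or below 0.251. CPM values are library-scaled counts with TMM (trimmed mean of M values) factors. The 3 root genes went in different directions: PYK10, at 1510 to 2330 CPM, had a log2 difference, SPAAC minus CuAAC with the trend on transcript length removed, of 0.32 (adjusted p = 1.88e-11, edgeR), AT5G47450, at 31.3 to 74.4 CPM, one of -0.58 (adjusted p = 1.4e-11, edgeR), and AT2G36100, at 5.96 to 11.4 CPM, one of -0.15 (adjusted p = 0.468, edgeR). Their part in the results was not tested. Counting did not keep strands apart: of 1877 opposite-strand overlapping pairs in which each member had more than 1000 counts, 29 had the same counts in all 15 libraries. A value of a gene with an overlapping neighbour is therefore uncertain.

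The sequences below illustrate the purine content that is set beside the differences further on. For each gene the 60-nt stretch of 1 coding exon with the most purines is printed 5′ to 3′ as the mRNA reads, with A and G in capitals, from the TAIR10.1 RefSeq genome. The first 5 belong to genes that were higher with SPAAC, AT4G05631 had the largest difference, and the last 2 were lower.
AT4G26630, DEK domain (chr4:13432039-13432098, minus strand): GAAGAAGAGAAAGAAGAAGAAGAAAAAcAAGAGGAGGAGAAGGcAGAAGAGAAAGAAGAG
AT5G40340, Tudor/PWWP/MBT (chr5:16134370-16134429, minus strand): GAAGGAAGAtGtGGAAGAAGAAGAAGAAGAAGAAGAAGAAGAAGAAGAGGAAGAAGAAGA
MBD10 (chr1:5276606-5276665, minus strand): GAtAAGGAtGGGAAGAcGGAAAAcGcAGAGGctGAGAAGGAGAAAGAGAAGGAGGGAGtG
EMB269 (chr5:6174446-6174505, minus strand): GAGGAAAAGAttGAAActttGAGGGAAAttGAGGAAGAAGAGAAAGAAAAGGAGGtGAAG
DOT1 (chr2:15165951-15166010, plus strand): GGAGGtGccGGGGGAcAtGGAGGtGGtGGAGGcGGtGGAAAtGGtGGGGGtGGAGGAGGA
AT4G05631 (chr4:2990129-2990188, minus strand): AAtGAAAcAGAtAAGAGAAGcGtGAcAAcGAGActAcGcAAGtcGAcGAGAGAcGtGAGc
LBD37 (chr5:26904597-26904656, minus strand): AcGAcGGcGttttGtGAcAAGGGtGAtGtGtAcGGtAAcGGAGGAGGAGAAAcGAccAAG
AT2G48130 (chr2:19685876-19685935, minus strand): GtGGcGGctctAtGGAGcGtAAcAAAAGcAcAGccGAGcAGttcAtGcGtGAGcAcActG
The stretches of AT4G26630 and AT5G40340 held 58 purines in 60 bases, or 96.7%. MBD10, EMB269 and DOT1 had 52, 51 and 48. AT4G05631 had 43, LBD37 had 41 and AT2G48130 had 35.

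Long transcripts were higher with SPAAC than with CuAAC, and this held in each pair of same-numbered libraries. Genes with over 5000 nt of summed exon had a median log2 difference, SPAAC minus CuAAC, of 1.01 ± 0.11 (SD of the 3 pair medians, 306 nuclear coding genes), with 1.00, 0.90 and 1.13 in the 3 pairs. Genes over 3000 to 5000 nt were at 0.68 ± 0.08 (2148 genes) and genes over 2000 to 3000 nt at 0.24 ± 0.03 (5248 genes). Short genes lay on the other side of 0: the medians were -0.31 ± 0.09 for over 500 to 1000 nt (2345 genes), -0.28 ± 0.05 for over 1000 to 1500 nt (4443 genes) and -0.05 ± 0.02 for over 1500 to 2000 nt (4907 genes). The 315 genes of at most 500 nt were at -0.17 ± 0.09, a spread that overlaps that of the next class. In the m7G-depleted libraries the genes over 5000 nt had a median of 1.09 ± 0.09.

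Set against mRNA-seq of the same RNA, the CuAAC libraries moved further with length than the SPAAC libraries. For genes over 5000 nt the median log2 difference from mRNA-seq was -1.35 ± 0.02 for CuAAC and -0.32 ± 0.12 for SPAAC (SD, n = 3 pairs). At over 3000 to 5000 nt it was -0.64 ± 0.02 for CuAAC and 0.05 ± 0.07 for SPAAC. At over 500 to 1000 nt it was 0.10 for CuAAC and -0.15 for SPAAC. Both differences share the mRNA-seq libraries, so they are given side by side without a test.

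**Figure D1:**
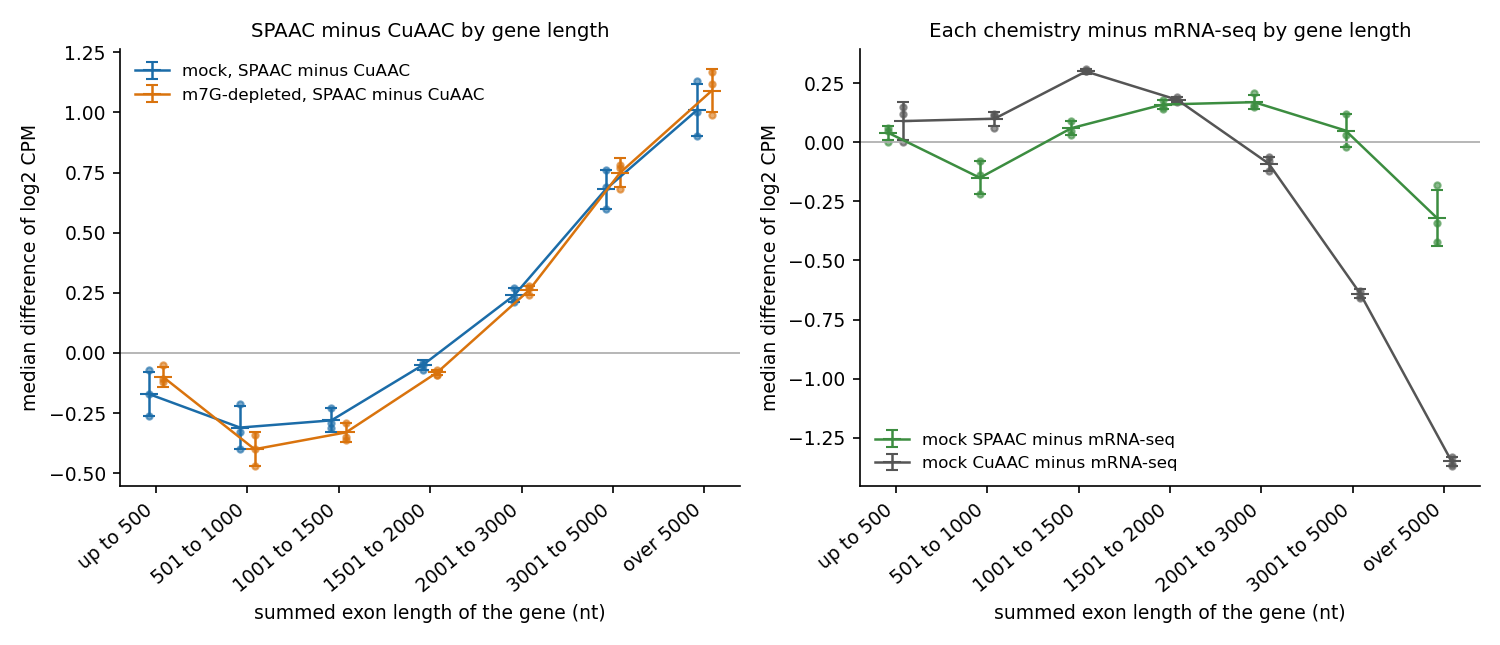
Median log2 difference by length class of nuclear coding genes, with length on the horizontal axis; points are the 3 same-number pairs, bars the SD, and lines join their means for SPAAC minus CuAAC and for each chemistry minus mRNA-seq. SPAAC minus CuAAC climbs from -0.31 at over 500 to 1000 nt to 1.01 over 5000 nt, while CuAAC falls to -1.35 relative to mRNA-seq.

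Without a length term, edgeR's quasi-likelihood test with the replicate number as block called 1446 genes higher with SPAAC (6.74% of those tested) and 130 lower (0.606%). A call is a Benjamini-Hochberg adjusted p under 0.05 and a fold change of at least 2. Among the 306 genes over 5000 nt, 163 were called higher, and among the 2148 genes over 3000 to 5000 nt, 385 were called higher and 0 lower. To describe gene functions beyond length, the trend of each library with length was removed before the test, and these values are called length-adjusted below. The length-adjusted test called 888 genes higher with SPAAC (4.14%) and 122 lower (0.569%). Of the 1446 genes called higher without a length term, 791 (54.7%) were still called, and 97 genes were called only after adjustment. Of the 130 called lower, 64 (49.2%) were still called. By adjusted p alone, 3332 genes (15.5%) were higher and 3962 (18.5%) were lower, so differences in both directions were common and most were under 2-fold.

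Most length-adjusted calls lay in genes that share sequence with a neighbour or have few counts. Another gene overlapped 664 of the 888 genes called higher (74.8%) and 83 of the 122 called lower (68.0%), against 8031 of all 21456 genes (37.4%). A mean of at least 10 CPM over the 6 libraries was reached by 157 of the 888 (17.7%) and 33 of the 122 (27.0%), against 10782 of 21456 (50.3%). By gene class, calls were 614 higher and 56 lower of 19712 nuclear coding genes, and 209 higher and 37 lower of 1314 nuclear noncoding genes. Of 6825 nuclear coding genes that overlap no other gene and reach 10 CPM, 42 were called higher (0.615%) and 3 lower (0.044%).

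The 12 highest genes, LBD37 and MAF1, described one by one below, were chosen for a large difference and for groups that do not overlap, so that their separation is a description and not a result. The 42 genes included several for chromatin, RNA-binding and glycine-rich proteins, and their length-adjusted log2 difference ran from 1.01 to 4.69 with a median of 1.31. By product name, which was grouped after the values were seen, they held 4 of 5 DEK-domain, nucleolin and Kin17 proteins, 6 of 24 glycine-rich proteins, 3 of 27 pre-mRNA splicing proteins and 2 of 4 Alba DNA/RNA-binding proteins. They held 3 of 224 protein kinases. Chosen in the same way, further names among them were KTF1, a KOW-domain transcription factor, HOS15, a WD-40 protein, NERD, a PHD-finger protein that binds chromatin, MOS2, a G-patch protein, and NFS1, the cysteine desulfurase of iron-sulphur cluster assembly.

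All 42 genes had a lower mean in CuAAC than in mRNA-seq, which held for 2926 of the 6825 genes (42.9%). Their median log2 difference from mRNA-seq was -1.32 for CuAAC, against 0.12 over the 6825 genes. For SPAAC it was 0.17, against 0.15 over the 6825 genes, and the SPAAC mean was above mRNA-seq in 28 of the 42 (66.7%) and in 4285 of the 6825 (62.8%). The 42 genes were chosen for CuAAC values well below SPAAC in these same libraries, which by itself makes a low CuAAC mean more likely. The differences from mRNA-seq have no length adjustment and share the mRNA-seq libraries, so they are descriptions.

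The DEK proteins bind chromatin and shape its structure, and 2 of them were among the genes with the largest differences. AT4G26630 had 64.2, 51.8 and 61.3 CPM in the 3 SPAAC libraries and 11.5, 9.34 and 10.1 in the 3 CuAAC libraries, with a mean of 46.0 in mRNA-seq. AT5G55660 had 30.8, 25.6 and 30.1 CPM with SPAAC and 4.77, 3.19 and 4.66 with CuAAC, with 26.0 in mRNA-seq. For both genes every SPAAC library was above every CuAAC library, and mRNA-seq lay near the SPAAC values. The length-adjusted log2 difference was 2.02 ± 0.09 (SE) for AT4G26630, with an adjusted p of 3.27e-38 by edgeR's quasi-likelihood test, and 2.34 ± 0.12 for AT5G55660, with 6.11e-32. In the m7G-depleted libraries the values were 2.36 and 2.75. Purines made up 64.7% of AT4G26630 and 65.7% of AT5G55660.

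Other chromatin and RNA-binding proteins were also among the highest. MBD10, a protein with a methyl-CpG-binding domain, had 153, 153 and 165 CPM with SPAAC and 53.1, 56.6 and 50.8 with CuAAC. The libraries within each group lay close together, and the length-adjusted log2 difference was 1.54 ± 0.05 (adjusted p = 3.68e-45, edgeR). AT5G40340, with Tudor/PWWP/MBT domains that read histone marks, had 23.3, 13.1 and 20.2 CPM with SPAAC and 4.26, 3.07 and 3.14 with CuAAC. The second SPAAC library was the lowest of its group and still above all CuAAC libraries, and the difference was 1.64 ± 0.14 (adjusted p = 4.31e-18, edgeR). AT5G55670, an RRM-type RNA-binding protein, had 61.1, 61.2 and 62.7 CPM against 15.5, 15.8 and 13.4, a difference of 1.52 ± 0.08 (adjusted p = 1.35e-32, edgeR). AT3G49601, a pre-mRNA splicing factor, had 20.7, 17.5 and 22.1 CPM against 5.03, 5.06 and 4.3, a difference of 1.89 ± 0.13 (adjusted p = 3.43e-24, edgeR). For both, the lowest SPAAC library was more than 3-fold above the highest CuAAC library.

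Glycine-rich proteins, many of them structural proteins of the cell wall, made up 6 of the 42. DOT1, a glycine-rich protein needed for leaf vein patterning, had 395, 311 and 290 CPM with SPAAC and 136, 107 and 129 with CuAAC. AT5G46730 had 21.0, 13.8 and 15.4 CPM with SPAAC and 5.35, 3.98 and 3.32 with CuAAC. The first SPAAC library was the highest of its group for both genes. The length-adjusted log2 differences were 1.64 ± 0.13 for DOT1 (adjusted p = 9.04e-06, edgeR) and 2.22 ± 0.15 for AT5G46730 (adjusted p = 2.83e-23, edgeR). GRP5, GRP9 and GRP23 were called at 1.42, 1.22 and 1.37. Genes of this family resemble each other, and how reads were split between near-identical copies was not tested.

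The largest difference among the 42 belonged to AT4G05631, an uncharacterized gene of 882 nt and 60.5% purines. It had 30.5, 27.0 and 29.5 CPM with SPAAC, 1.35, 1.27 and 1.61 with CuAAC, and 23.0 in mRNA-seq. All 3 CuAAC libraries were far below all SPAAC libraries, and mRNA-seq lay close to SPAAC. The length-adjusted log2 difference was 4.69 ± 0.15 (adjusted p = 1.68e-31, edgeR) and was 4.51 in the m7G-depleted libraries.

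Of the remaining genes named by rank, EMB269, an Obg-type GTPase, had 48.2, 58.8 and 60.9 CPM with SPAAC and 11.2, 15.1 and 12.9 with CuAAC. AT3G05220, a heavy-metal-associated domain protein, had 243, 212 and 234 against 52.8, 52.9 and 47.6. AT3G23450, an uncharacterized gene, had 109, 142 and 92.3 against 24.7, 34.5 and 20.4. The SPAAC libraries of AT3G23450 spread more widely than those of the other two. The length-adjusted log2 differences were 1.82 ± 0.08 for EMB269, 1.56 ± 0.05 for AT3G05220 and 1.96 ± 0.21 for AT3G23450, with adjusted p of 8.19e-37, 1.37e-45 and 7.83e-05 by edgeR.

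Of the 3 genes called lower at this level, LBD37, a LOB-domain factor of nitrogen and anthocyanin metabolism, had 145, 122 and 130 CPM with SPAAC and 233, 208 and 215 with CuAAC, and each SPAAC library was the lower of its pair. The log2 difference was -0.72 before and -1.05 ± 0.05 after length adjustment (adjusted p = 2.58e-36, edgeR). Its call rests on the deposited length, since the difference was -0.91 when the length of the shortest annotated transcript was used.

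MAF1, a MADS-box floral repressor of the FLC clade, had 23.7, 28.4 and 24.5 CPM with SPAAC and 30.9, 31.6 and 32.9 with CuAAC. The groups lay close together without overlap, and the log2 difference was -0.31 before and -1.16 ± 0.08 after adjustment (adjusted p = 8.75e-22, edgeR). The deposited length of MAF1 was 4480 nt but its shortest transcript was 722 nt, and with that length the difference was -0.03 (adjusted p = 0.788, edgeR). AT2G48130, a lipid-transfer-type protein, had 14.0, 6.92 and 9.05 CPM with SPAAC and 23.7, 8.98 and 15.7 with CuAAC. These groups overlapped, although each pair had the lower value with SPAAC. The difference was -1.30 ± 0.12 (adjusted p = 1.31e-16, edgeR), and without the replicate block the adjusted p was 0.0631. Against the 2-fold threshold itself (glmTreat in edgeR), none of the 3 was called, with adjusted p of 0.322 for MAF1, 1.0 for LBD37 and 0.0801 for AT2G48130.

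**Figure D2:**
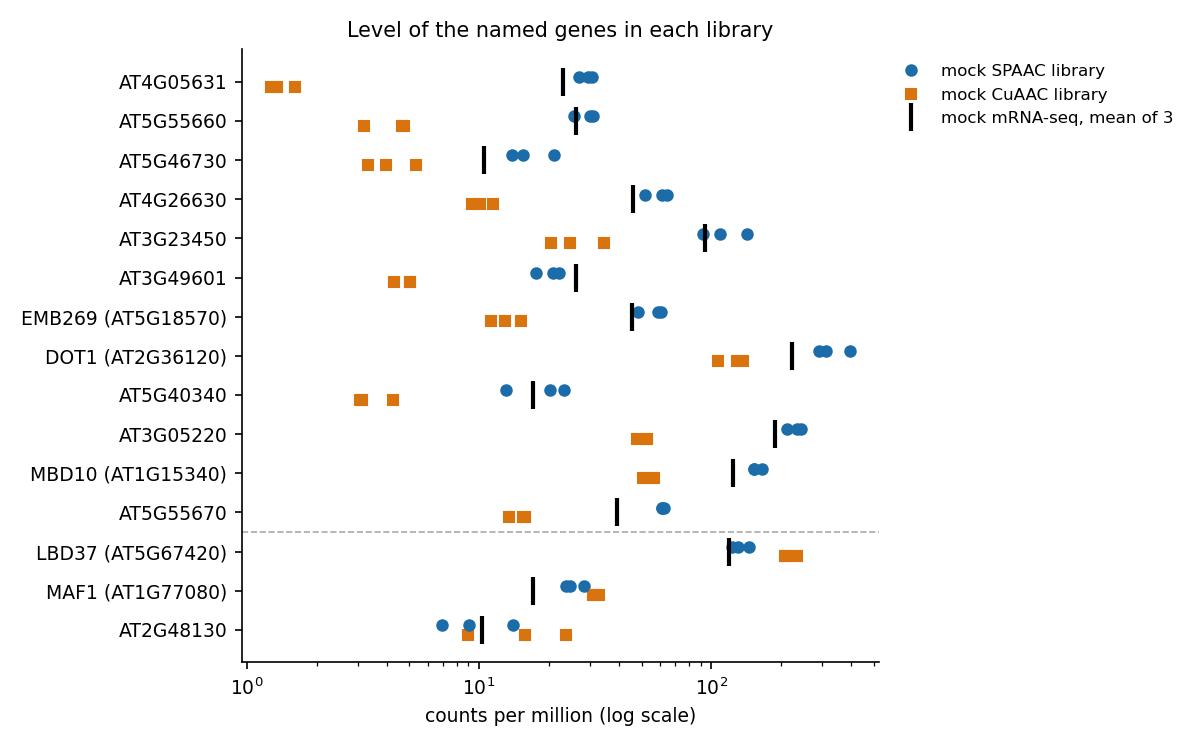
CPM on a log axis of the 12 highest nuclear coding genes by rank and the 3 called lower, in each mock SPAAC and mock CuAAC library, with the mRNA-seq mean; each point is 1 library. The 12 highest genes, MAF1 and LBD37 were chosen for groups that do not overlap; AT4G05631 has the largest difference, at 4.69, and AT2G48130, which was not chosen in this way, has overlapping groups.

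The purine share of the transcript, which the length adjustment did not use, moved with the difference. This was noticed after the values were seen and is given as a description across genes, which are not independent replicates and share the same libraries. Over 8934 nuclear coding genes that overlap no other gene and have at least 5 CPM, Spearman's rho between the share of A and G and the length-adjusted log2 difference was 0.49. It was 0.41, 0.45 and 0.44 in the 3 mock pairs and 0.37 in the m7G-depleted libraries, with pairs at 0.35, 0.30 and 0.30. GC content had a rho of 0.06. The bases alone gave 0.30 for A, 0.35 for G, -0.31 for C and -0.34 for T, so both purines were on the side of SPAAC and both pyrimidines on the side of CuAAC.

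In the decile of these genes with the highest purine share, 54.0 to 67.6%, the median log2 difference was 0.29 ± 0.02 (SD of the 3 pair medians, 894 genes). In the decile with the lowest share, 34.5 to 46.7%, it was -0.22 ± 0.02 (894 genes). The highest decile held 60 of the 73 genes called higher in this set, and the lowest decile held 5. The highest decile was at 0.27 ± 0.01 in the m7G-depleted libraries. Against mRNA-seq, on the length-adjusted scale, the highest decile was at -0.32 ± 0.02 with CuAAC and 0.02 ± 0.04 with SPAAC. The lowest decile was at 0.31 ± 0.01 with CuAAC and 0.14 ± 0.01 with SPAAC.

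**Figure D3:**
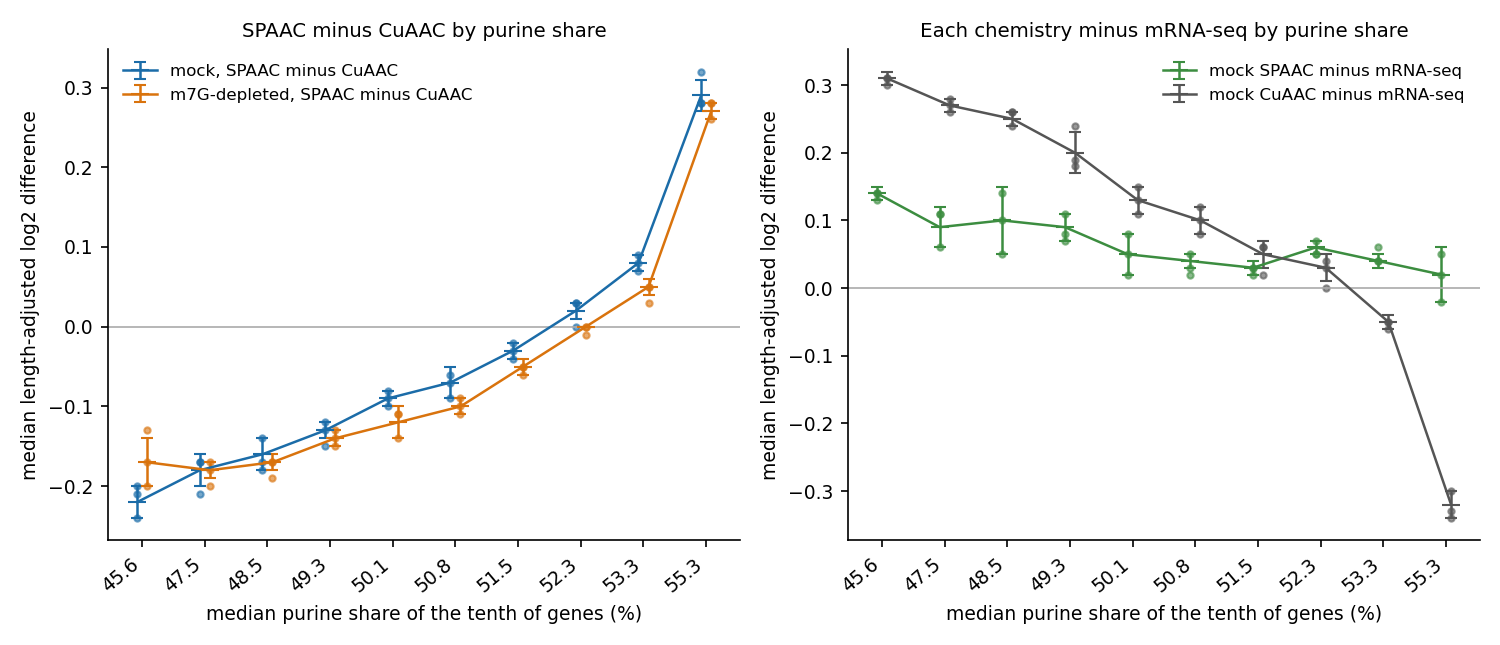
Median length-adjusted log2 difference in deciles of purine share of the transcript, for mock SPAAC minus CuAAC, for m7G-depleted SPAAC minus CuAAC and for each mock chemistry minus mRNA-seq; points are the 3 pairs, bars the SD, and lines join their means. SPAAC minus CuAAC runs from -0.22 in the lowest decile to 0.29 in the highest, and the CuAAC line against mRNA-seq runs from 0.31 to -0.32.

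Among the 42 abundant, non-overlapping genes called higher, 38 (90.5%) were in that highest decile, against 605 of the 6825 (8.86%). The 4 outside it were AT2G43150, an extensin-like protein with 41.1% purines, AT2G15880, a leucine-rich repeat protein with 45.4%, AT2G30740, a protein kinase with 47.9%, and AT4G13530, an uncharacterized gene with 53.2%.

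The relation was seen with the coding sequence and hardly with the untranslated regions (UTRs). The purine share of the coding sequence had a rho of 0.46, that of the 5′ UTR 0.08 and that of the 3′ UTR -0.03. The richest 60-nt stretch of a gene's joined coding sequence, which unlike the stretches printed above may cross exon junctions, held a median of 73.3% purines over all 8934 genes, 85.0% in the 73 genes called higher and 70.0% in the 8 called lower. AT4G05631, with the largest difference, was at 73.3%, equal to the median of all. The longest uninterrupted purine run had a median of 12 nt over all genes, 19 nt in the genes called higher and 13 nt in those called lower. Codons for lysine and glutamate (AAA, AAG, GAA and GAG) consist of purines only, and they made up a median of 12.5% of codons over all genes, 17.6% in the genes called higher and 10.2% in those called lower. In the 447 genes with the largest share of these codons, at least 20.5%, 31 were called higher and 0 lower, and the median log2 difference was 0.21. In the 447 genes with the most glycine codons, at least 10.8%, 15 were called higher and 0 lower, and the median was -0.01. Over all 8934 genes, 73 were called higher and 8 lower, and the median was -0.06.

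With the trend on purine share removed as well as that on length, the differences of the 12 highest genes became smaller. AT5G55660 went from 2.34 to 1.35, AT4G26630 from 2.02 to 1.09 and EMB269 from 1.82 to 1.42. DOT1, AT5G40340 and MBD10 fell under the 2-fold threshold, at 0.91, 0.86 and 0.74, and LBD37 was at -0.95. AT4G05631 was at 3.99. Some genes on the other side moved further from 0, among them the nested AT3G09905, from -0.63 to -1.77, and the noncoding AT3G01525, from -1.38 to -1.88. Both of these lie inside a host gene on the other strand and may count its reads. Their purine share was taken from their own strand, on which purines of the host read as pyrimidines, so these values are uncertain. The number of genes called lower, overlapping genes included, rose from 122 to 233.

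The first base of the annotated transcript showed no such gradient, with medians of -0.06, -0.05, -0.06 and -0.06 for A, C, G and T. Genes without introns were at -0.11 ± 0.02 and genes with 9 to 15 introns at 0.00.

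Across 34 gene families, most of the difference went with length and few families stood far from 0 once that trend was removed. Over all 19712 nuclear coding genes the median moved from 0.00 to -0.03, with 2909 genes past the adjusted p upward (14.8%) and 3602 downward (18.3%). Of the 19712 genes, 614 (3.11%) were called higher and 56 (0.284%) lower. Counts of members below are of adjusted p alone by edgeR unless they are said to be called, and the lists were chosen with earlier results of these data known.

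The kinesin and myosin list and the pentatricopeptide repeat proteins were on the side of SPAAC. Kinesins and myosins are the motors of microtubules and actin, but the list was chosen by product name and also holds myosin-related proteins. Of its 75 members tested, 26 were higher and 4 lower, 5 of them called. The members had a median log2 difference of 0.84 before and 0.23 after length adjustment. Their median purine share was 54.8%, against 50.7% over all nuclear coding genes, and with the purine trend removed as well the median was -0.04. The myosin-related AT4G32190 had 30.2, 33.4 and 31.8 CPM with SPAAC and 13.9, 16.0 and 13.8 with CuAAC, without overlap, a length-adjusted difference of 0.71 that was 0.21 with the purine trend removed (adjusted p = 0.0646, edgeR). Pentatricopeptide repeat proteins, which bind organelle RNA, had 46 of 239 higher and 17 lower, with medians of 0.42 and 0.18. Of these, 15 were called higher (6.28%, against 3.11% over all nuclear coding genes) and 1 lower. None of these called genes was among the abundant, non-overlapping called genes described above. Each overlaps another gene or is under the CPM level asked for there, so this share rests on less certain values. The median of the pentatricopeptide repeat proteins was 0.16 in the m7G-depleted libraries and 0.10 with the purine trend removed.

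Chromatin remodellers and helicases had 32 of 128 higher by adjusted p alone (25.0%) and 13 lower, but 4 called higher, a share of 3.12% that is close to the 3.11% over all nuclear coding genes. Their median went from 0.68 to 0.11 with length adjustment and to 0.01 with the purine trend removed. The RNA helicase AT3G26560 was at 0.78 after length adjustment and at 0.47 with the purine trend removed. NLR disease resistance proteins went from 0.80 to 0.09 and 0.03, with 22 of 126 higher and 15 lower. F-box proteins, which select targets for ubiquitin ligases, had a median of -0.05. Yet 12 of 171 were called higher (7.02%, against 3.11% over all nuclear coding genes) and 1 lower. These calls all lay in genes that overlap another gene or are under 10 CPM. Chaperones and heat shock proteins had 62 of 236 higher and 43 lower at a median of 0.06, or -0.02 with the purine trend removed, with 9 called higher and 2 lower. Translation factors had 26 of 101 higher and 21 lower at a median of -0.02, and 7 were called higher. The one named among them, AT1G76810, carries the annotated product name of an eIF-2 family protein, and its function was not looked at. It had 61.6, 63.9 and 67.4 CPM with SPAAC and 15.5, 17.2 and 12.1 with CuAAC, without overlap. The difference was 1.22 ± 0.08 (adjusted p = 1.38e-26, edgeR) and was 0.68 with the purine trend removed.

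Arabinogalactan and glycine-rich proteins had 36 of 93 higher and 15 lower, with 12 called higher, yet a median of 0.03. A narrower list of glycine-rich proteins, made after the values were seen, had 33 of 51 higher and 2 lower, 11 called higher, and a median of 0.57 that was 0.29 with the purine trend removed. Another such list, DEK, nucleolin and Kin17 proteins, had 10 of 12 higher and 0 lower, with 6 called and a median of 1.01 that was 0.35 with the purine trend removed. Splicing factors, the remaining such list, had 27 of 79 higher and 9 lower at a median of -0.01. Cold-regulated and late embryogenesis abundant proteins had 19 of 78 higher and 11 lower at a median of 0.03, with 5 called higher. LTI78, a cold- and drought-induced protein of this list, had 186, 193 and 208 CPM with SPAAC and 78.2, 88.4 and 86.2 with CuAAC, without overlap, a difference of 0.84 that was 0.30 with the purine trend removed.

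Families of photosynthesis, water transport and redox enzymes were on the side of CuAAC, by less than 2-fold. Over all nuclear coding genes 18.3% were lower by adjusted p alone, at a median of -0.03. Smaller differences pass the adjusted p in more abundant genes, and the families were not matched for level, so these shares depend on abundance too. Photosystem and light-harvesting proteins had 40 of 69 members lower with SPAAC (58.0%) and 1 higher, with a median of -0.41 before and -0.16 after length adjustment, and 0 called. PSAF, subunit F of photosystem I, had 3610, 4300 and 4070 CPM with SPAAC and 6040, 7000 and 6870 with CuAAC, and the groups did not overlap. Its length-adjusted log2 difference was -0.47 ± 0.04 (adjusted p = 4.61e-18, edgeR). Aquaporins, the water channels of cell membranes, had 14 of 29 lower (48.3%) and 5 higher at a median of -0.22. Although 3 were called higher, each of these overlaps another gene or is under 10 CPM. The aquaporin TIP2 had 1910, 2300 and 1950 CPM with SPAAC and 3130, 3600 and 3680 with CuAAC, without overlap, a difference of -0.52. The median purine share was 49.7% in the photosystem list and 47.6% in the aquaporins. With the purine trend removed the medians were -0.12 and -0.09, and PSAF and TIP2 were at -0.31 and -0.36.

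Peroxidases, glutathione transferases and redox proteins had 74 of 236 lower (31.4%) and 18 higher at a median of -0.15, or -0.09 with the purine trend removed. The list of nuclear respiratory chain and ATP synthase genes, which also holds the vacuolar VHA-A, had 26 of 79 lower (32.9%) and 9 higher. Its medians on these scales were -0.13 and -0.04. Calvin cycle and photorespiration genes had 11 of 28 lower (39.3%) and 1 higher, at -0.06 and -0.05, near the -0.03 and -0.01 over all nuclear coding genes. Lipid transfer proteins, defensins and thionins had 27 of 88 lower (30.7%) and 10 higher, at -0.10 and -0.02. Cytochromes P450, at 31 of 164 lower (18.9%) and 17 higher, were near the share over all nuclear coding genes, with medians of -0.08 and -0.06. SAUR auxin-responsive proteins, at 5 of 51 lower (9.8%) and 2 higher, were under that share, with medians of -0.12 and -0.01. Ribosomal proteins, at 81 of 328 lower (24.7%) and 45 higher, moved from -0.28 to -0.03 with length adjustment, and 4 were called higher.

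Several families of long genes came back to the middle. Receptor-like and LRR kinases went from 0.41 to -0.06, ABC transporters from 0.47 to -0.01, cellulose and callose synthases from 0.65 to 0.01, phytochromes, cryptochromes and clock proteins from 0.59 to -0.02, nuclear pore and exocyst proteins from 0.53 to 0.05, and clathrin and coatomer from 0.34 to 0.05. Transcription factors were also near 0 after adjustment: WRKY factors were at 0.08, NAC factors at 0.07, MYB factors at 0.03, AUX/IAA and auxin response factors at 0.02, ERF and DREB factors at -0.04 and bHLH factors at -0.05. Zinc finger and RING proteins were at -0.07, aminoacyl-tRNA synthetases at -0.06, proteasome subunits at -0.03 and histones at 0.04.

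The genes that the remaining families put forward were AT3G05670, a RING/U-box protein called at 1.45 ± 0.11 (adjusted p = 5.78e-21, edgeR), and a set past the adjusted p but under 2-fold. Lower with SPAAC both before and after length adjustment were AT2G42300, a bHLH factor at -0.22 and -0.90, CYP706A1 at -0.51 and -0.76, the ethylene response factor ERF7 at -0.59 and -0.75, and the auxin repressor IAA8 at -0.48 and -0.59. The J-domain chaperone J11 was at -0.71 and -0.55, the histone RAT5 at -0.79 and -0.48, the transcription factor WRKY22 at -0.64 and -0.42, the F-box gene AT1G23390 at -0.30 and -0.36, the chloroplast aldolase FBA2 at -0.38 and -0.35, and AT1G72430 of the SAUR list at -0.60 and -0.34. With the purine trend removed, WRKY22 was at -0.27 and AT1G72430 at -0.19.

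In another set of family genes the sign was negative with the length term and positive without it, so that their measured CPM were not lower with SPAAC. The receptor kinase AT1G53430 had 64.3, 54.5 and 53.0 CPM with SPAAC and 50.7, 49.2 and 43.9 with CuAAC, a log2 difference of 0.25 before (adjusted p = 3.93e-04, edgeR) and -0.53 after length adjustment. RPP4, a disease resistance gene, had 66.0, 70.7 and 69.2 CPM against 50.1, 57.5 and 52.2, a difference of 0.37 before (adjusted p = 1.05e-07, edgeR) and -0.40 after adjustment, and -0.11 in the m7G-depleted libraries (adjusted p = 0.13, edgeR). Both had every SPAAC library above every CuAAC library. The auxin transporter ABCB1 went from 0.41 to -0.48 and the elongation factor LOS1 (AT1G56070) from 0.23 to -0.48, with adjusted p before adjustment of 5.67e-07 and 4.73e-05 by edgeR. The catalase CAT3 (AT1G20620) went from 0.14 (adjusted p = 0.00526, edgeR) to -0.48, and was at 0.05 with the length of its shortest transcript. The proteasome gene AT1G53780, the proton pump subunit VHA-A (AT1G78900) and NAC050 (AT3G10480) did not pass the threshold before adjustment, at 0.18, 0.07 and 0.06 with adjusted p of 0.0895, 0.233 and 0.612 by edgeR, and were at -0.48, -0.34 and -0.33 after it. NAC050 was at 0.03 with the length of its shortest transcript.

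Higher with SPAAC before and after length adjustment were AT5G20200 of the nuclear pore list, at 0.59 after adjustment, the coatomer gene AT1G52360 at 0.47 and the callose synthase GSL10 at 0.28. The valyl-tRNA synthetase TWN2 was at 0.49 and the pentatricopeptide gene AT5G46580 at 0.40, and with the purine trend removed at 0.25 and 0.22. AT4G33740 of the MYB list was at 0.78 and the clock gene PRR5 at 0.32, but with the purine trend removed both missed the threshold, at 0.12 (adjusted p = 0.552, edgeR) and 0.07 (adjusted p = 0.357, edgeR).

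**Figure D4:**
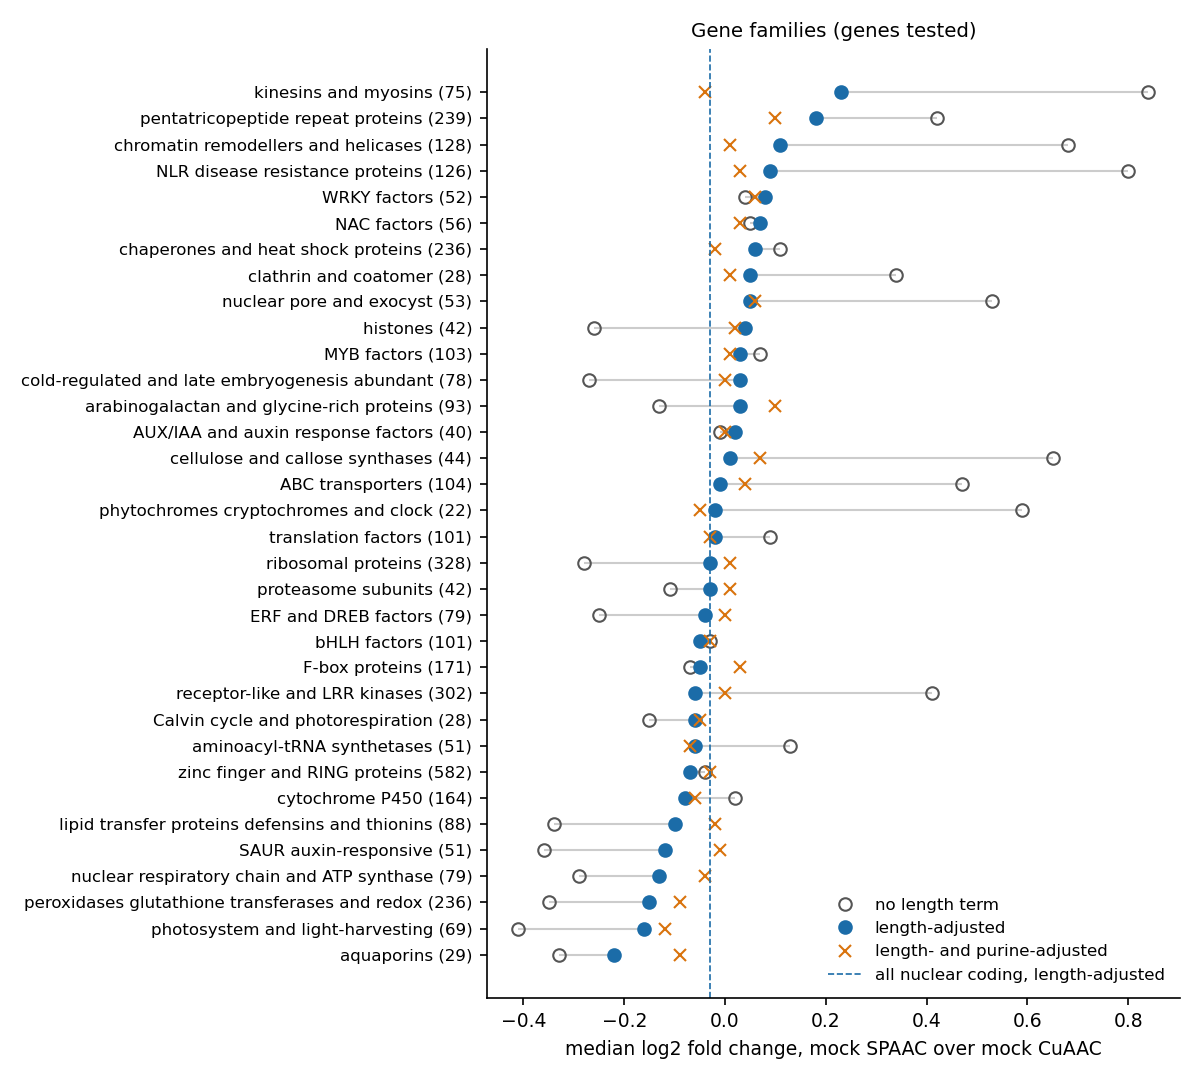
Median log2 difference, SPAAC minus CuAAC, of each gene family before (open circle) and after (filled) removal of the length trend, and with the purine trend removed as well (cross), with the number of genes tested; the dashed line is the median over all nuclear coding genes. The kinesins and myosins drop from 0.84 to 0.23, and most other families of long genes drop to near 0.

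Genes of the organelles went in both directions. Of 115 chloroplast genes, 18 were called lower and 0 higher, with a median length-adjusted log2 difference of -0.65, and -0.76 in the m7G-depleted libraries. Of 78 mitochondrial genes, 25 were called higher and 2 lower, with a median of 0.66, and 0.68 in the m7G-depleted libraries. ATMG00510 had 36.7, 47.3 and 43.0 CPM with SPAAC and 13.6, 17.6 and 16.5 with CuAAC, without overlap, a difference of 1.69 ± 0.08. ATMG01120 was at 1.51. The organelle genes named here and below were chosen for their large called differences, so that separation of their groups is a description.

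ATMG00020 had 203, 191 and 223 CPM with SPAAC and 532, 505 and 474 with CuAAC, a difference of -1.62 ± 0.12, and ATCG00950 had 7.58, 10.5 and 11.2 against 32.2, 32.4 and 22.6, a difference of -2.02 ± 0.25. Neither had overlapping groups, and both had far more in mRNA-seq, at 16000 CPM for ATMG00020 and 1250 for ATCG00950. ATCG01180 was at -1.53 with an adjusted p of 0.0444 by edgeR, which was 0.0577 without the filter on low counts. Without a length term ATCG01180 was at -1.09 and missed the threshold (adjusted p = 0.0811, edgeR). ATCG00950 and ATCG01180 have the same length and may share reads, which was not tested.

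The position of a nested gene within its host gene also went with the difference. Because counting ignored strand, a small gene nested in the exons of a larger one also counts the host's reads over that stretch. In the wider of 2 definitions, made after the values were seen, at least 0.5 of the nested gene's exon bases lay in host exons. This definition made no demand on the level of the host, and how many of the reads came from the host was not tested. The host's exons were divided into 4 equal parts from the 5′ end. Nested genes in the first part had a median log2 difference without length adjustment of -0.50 ± 0.06 (SD of 3 pair medians, 154 genes). The second part was at -0.21 ± 0.04 (153 genes), the third at 0.54 ± 0.02 (161 genes) and the last at 0.89 ± 0.01 (102 genes). The hosts themselves were at 0.16, -0.02, 0.00 and 0.10. Taken pair by pair, the nested gene minus its host was -0.60, -0.07, 0.54 and 0.91 in the 4 parts, and -0.49, -0.05, 0.50 and 0.77 in the m7G-depleted libraries. Of the nested genes, 12 were called lower in the first part and 1 higher, while 48 were called higher in the last and 1 lower.

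A stricter definition asked for a host at least 5 times the level of the nested gene per length and left 7, 6, 11 and 9 genes. Their medians were -0.18 ± 0.13, 0.23 ± 0.28, 0.70 ± 0.19 and 0.61 ± 0.28. The first 2 parts overlapped in their spread, and so did the last 2. In the wider definition, hosts of at least 2000 nt gave 1.08 ± 0.08 in the third part (65 genes) and 1.10 ± 0.13 in the last (64 genes), and shorter hosts gave 0.32 ± 0.02 (96 genes) and 0.78 ± 0.04 (38 genes).

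**Figure D5:**
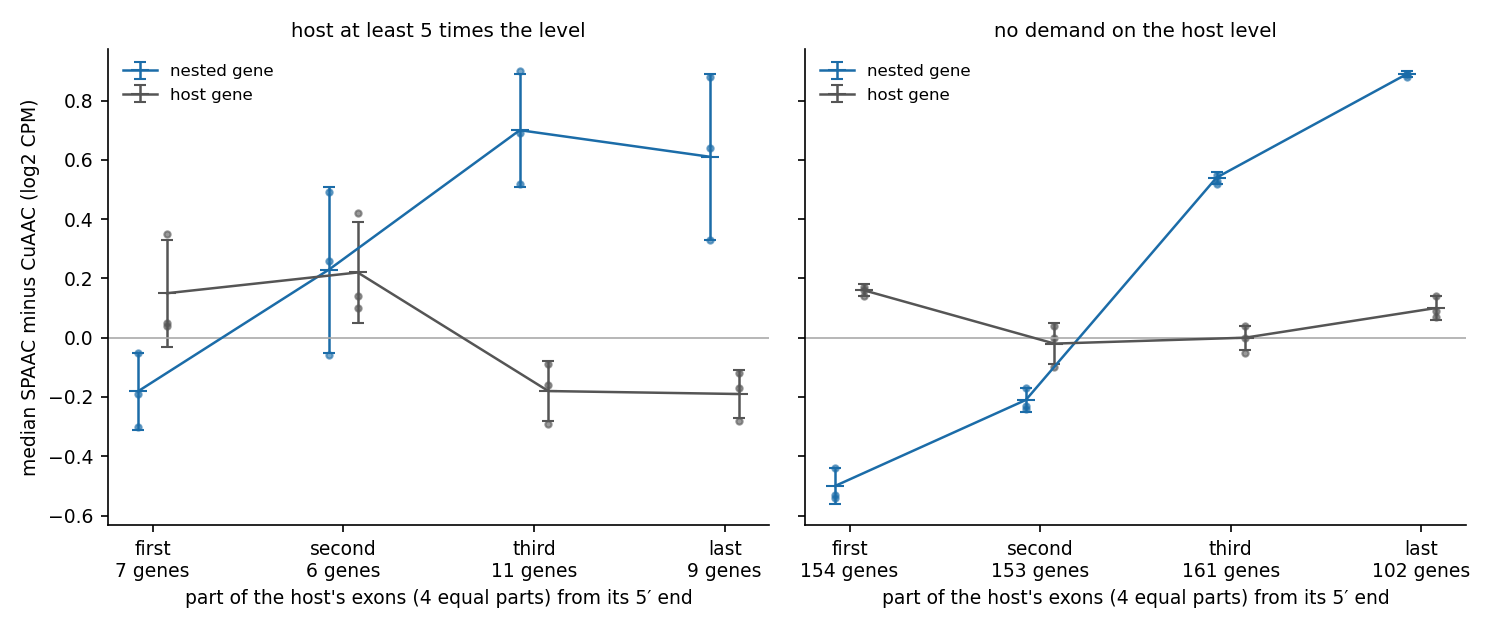
Median log2 difference, SPAAC minus CuAAC, of nested genes and of their hosts by the part of the host transcript, from its 5′ end, in which they lie, under the stricter and the wider definition; points are the 3 pairs and bars the SD. Under the wider definition nested genes go from -0.50 in the first part to 0.89 in the last, while hosts stay between -0.02 and 0.16.

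Single stretches showed both sides. AT3G09905, 21.3% from the 5′ end of CSP41A, a chloroplast RNA-binding protein, had 176, 188 and 161 CPM with SPAAC and 294, 295 and 286 with CuAAC. The groups did not overlap, and its log2 difference was -0.74 against -0.20 for the host. AT1G05253 in HCF173, a factor for translation of a photosystem II mRNA, was at -0.69 against 0.30 for the host, and AT2G03895 in APG2, a thylakoid translocase subunit, at -0.85 against -0.46. Each of these nested genes had a higher level per length than its host, with host-to-nested ratios of 0.479, 0.534 and 0.239. How many of their reads came from the host was not tested.

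At the other end, AT5G00820, 77.4% into Fes1C, was at 1.09 ± 0.21 (adjusted p = 6.01e-06, edgeR) against -0.43 for the host. For 3 noncoding genes the position is the midpoint in the host's genomic span, introns included. AT2G09090, 89.8% into ISA1, a starch-debranching isoamylase on the other strand, had 16.2, 17.1 and 21.3 CPM with SPAAC and 2.71, 3.07 and 3.05 with CuAAC. Its difference was 2.62 against 0.69 for ISA1, or 2.91 against 0.16 after length adjustment. AT3G02455 lay near the middle of the LETM1-like AT3G11560, at 56.2%, and spans 3641635 to 3644664 with 1000 nt of exon, so it is not 1 stretch. It had 23.0, 25.0 and 27.2 against 4.26, 5.0 and 5.29, a difference of 2.38 against 0.71, or 2.68 against 0.06 after adjustment. Towards the 5′ end, AT3G01525, 22.8% into DRT102, had 12.3, 12.2 and 11.2 against 29.9, 31.1 and 31.4. Its difference was -1.37 against -0.69, or -1.38 against -0.40 after adjustment. No pair of groups among these 3 noncoding genes overlapped, but the genes were chosen for their large called differences.

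The pattern was not uniform. Under the stricter definition AT1G09327 in the first part was at -0.83 (adjusted p = 0.00102, edgeR), while AT1G23410 and AT5G09405 were at 0.04 and 0.12. In the last part AT1G74055 was at -0.46 and AT3G52075 at 0.24. All but AT1G09327 of these missed the threshold, and each was under 4 CPM. FdC1, SVB and AT5G51190, the most abundant nested genes in the last part, were at -0.43, -0.48 and -0.33, and each had a higher level per length than its host, with host-to-nested ratios of 0.289, 0.335 and 0.429. AT2G31751 overlapped UGT74D1 only in part and was at -1.39 after length adjustment, but at -0.30 with the length of its shortest transcript.

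Most genes called on mock RNA had a difference of the same sign on m7G-depleted RNA. There, 925 genes were called higher with SPAAC (4.31%) and 182 lower (0.848%) after length adjustment. Of the 888 genes called higher on mock RNA, 660 (74.3%) were called higher again and 872 (98.2%) had a positive difference. Of the 122 called lower, 56 (45.9%) were called lower again and 115 (94.3%) were negative, and 0 genes were called in opposite directions. Of the 42 abundant, non-overlapping genes, 33 (78.6%) were called again, and all 42 were positive, from 0.65 to 4.51. The difference between mock and depleted RNA was itself tested in the joint model. There, 4 genes were called with a larger SPAAC minus CuAAC difference on mock RNA (0.0186%) and 3 with a smaller one (0.014%). All 7 overlap other genes, and none was called without the replicate block.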

How the data were processed

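The authors deposited a whole-number count of reads per gene for each library, with the summed exon length, per the file headers. STAR 2.7.3a, featureCounts 2.0.0 and DESeq2 are listed in the submitters' processing notes. Genome build and the strand setting of counting: not given in the sources used here. In all, 99.2% of gene IDs matched TAIR10.1, and 99.5% of those had the deposited length, so sequences and coordinates are TAIR10.1.

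All 15 libraries were fitted jointly in edgeR 4.0.16 (R 4.3.3; quasi-likelihood, TMM, filterByExpr) by group with the replicate number as block. The numbers pair the samples: same-number mock libraries deviated together (correlations 0.8, 0.695 and 0.317 across 7763 genes), and the labels describe aliquots of one RNA. The biological coefficient of variation was 5.53%, and 5.21% after length adjustment. For the latter, a lowess trend (span 0.3) of each library on log2 length, fitted on nuclear coding genes, entered as offsets. Replicates differed by more than sampling noise (chi-square per degree of freedom 5.46 to 16.5 among mock NAD-seq libraries), and SE and p-values come from edgeR. The procedure was tested on simulated counts.

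Genes, families and the comparison were chosen with earlier results of these data known. Families came from product names, with patterns corrected for false matches by name only. Named genes are the 12 highest and 12 lowest called nuclear coding genes with at least 10 CPM, no overlapping gene and groups that do not overlap (2 qualified as lowest), 1 gene for each family (the largest called member at that level, otherwise the smallest adjusted p), 2 organelle and noncoding genes for each direction where called, and the 3 most abundant nested genes in the first and the last of 4 equal parts of their hosts. Alternatives were other scalings, filters, length definitions, trends, DESeq2 1.42.0, a test against the 2-fold threshold (glmTreat), no block, and each replicate left out. One sequence is not reported here.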

Additional observations from a re-analysis of the deposited data

Results flagged for a closer look

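In the joint edgeR fit with length adjustment, 4 genes had a larger SPAAC minus CuAAC difference on mock than on m7G-depleted RNA and 3 had a smaller one, each at least 2-fold with a Benjamini-Hochberg adjusted p under 0.05. RR3, a cytokinin response regulator, stood out with a difference of differences of 1.52 (adjusted p = 1.05e-10, edgeR): SPAAC minus CuAAC was -1.11 on mock and -2.63 on depleted RNA. RR3 (AT2G41310) had 3.95, 3.12 and 4.37 CPM with mock SPAAC, 8.00, 6.75 and 5.91 with mock CuAAC, and 453 in mRNA-seq.

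SDH8 (AT2G46390), a subunit of mitochondrial complex II, had a difference of 1.07, with 0.31 on mock and -0.76 on depleted RNA (adjusted p = 3.71e-04, edgeR). AT1G07963 was at 1.22 (adjusted p = 0.0152, edgeR) and AT1G64633, listed at a length of 3 nt, at 1.19 (adjusted p = 0.0206, edgeR). In the other direction, AT2G23755 was at -1.54, AT1G19715 at -1.26 and AT2G37530 at -1.13, with adjusted p of 0.029, 0.00243 and 0.0391 by edgeR. All 7 overlap another gene, and none was called without the replicate block.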

How the results depend on the processing

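Genes called higher and lower with SPAAC on mock RNA numbered 1446 and 130 without a length term and 888 and 122 with length adjustment; on depleted RNA they numbered 925 and 182, and 7 for the difference between mock and depleted RNA. In that order, a test against the 2-fold threshold gave 533, 5, 395, 14, 318, 39 and 0. At least 5 CPM gave 724, 31, 288, 47, 318 and 52, and genes without overlap gave 630, 49, 230, 35, 246, 50 and 0. Library totals as scaling moved the median of all genes without a length term from 0.00 to 0.11 and the 130 to 78. Removing purine as well as length moved the 122 to 233. For the 7, DESeq2 gave 2 and no low-count filter 11. Leaving out replicates gave 1169 to 1579, 150 to 216, 793 to 894, 116 to 134, 832 to 930, 174 to 201 and 3 to 15.

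The replicate block mattered for the difference between mock and depleted RNA, where the fit without it called 0. It otherwise gave 1388, 109, 802, 100, 818 and 159 in the order above.

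The class over 1500 to 2000 nt was at -0.08 without overlapping genes, and that over 2000 to 3000 nt at 0.27 by longest transcript. By genomic position, the nested medians were -0.40, 0.71 and 0.28 in the first, second and last part of the host. Hosts of at least 20 times the level gave 0.02 in the first (3 genes) and 0.33 in the third (4 genes). The wider definition gave -0.50 and -0.21 in the first and second.

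The following single genes changed sign. Without a length term, leave-outs gave AT1G78900 -0.01 to 0.10, AT3G10480 -0.07 to 0.15, AT2G46390 -0.07 to 0.20, AT1G23410 -0.32 to 0.23, AT5G09405 -0.40 to 0.70 and AT3G52070 -0.19 to 0.14, and library totals gave AT3G52070 0.07. With length adjustment, leave-outs gave AT5G09405 -0.09 to 1.01, AT5G51190 -0.12 to 0.06 and AT5G65630 0.00 to 0.12. The shortest transcript length gave AT1G20620 0.05, AT3G10480 0.03 and AT5G65630 -0.02, the added purine trend AT4G14890 0.00 and AT3G63140 0.03, and a spline AT1G16720 -0.02.

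The purine trend, the shortest-transcript length and the wider nested definition were chosen after the data were seen. The cause of each shift was not tested. Low counts limit many calls: 157 of the 888 genes reached 10 CPM.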
